A study of Mus musculus with 3 samples.

Results

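The genes described are 6 that encode matrix proteases or their inhibitors: Timp1, Timp2 and Timp3, which encode tissue inhibitors of metalloproteinases, Mmp2 and Mmp14, which encode matrix metalloproteinases, and Prss23, which encodes a secreted serine protease. They were picked by name, with earlier results of these data known, and all 6 are among the 50507 gene rows of the count table. The share of all genes called, given below beside their calls, is therefore for scale and is no test of enrichment. The study followed primary mouse embryonic fibroblasts (MEFs) of the BL6 strain, wild type, through the early phase of reprogramming towards pluripotency. All cells, at every time point and in every transfection, had been transduced with lentiviruses that carry rtTA and a doxycycline-inducible cassette of Oct4, Sox2, Klf4 and c-Myc (tet-STEMCCA), and reprogramming was started at passage 2 with doxycycline in a medium that also holds LIF, ascorbic acid, a GSK3 inhibitor (chiron) and a TGF-beta receptor inhibitor (Alk5i). Untransfected cells were collected daily from Day00, when induction started, to Day06, with 3 libraries a day. In the screen, cells were transfected on the day before induction with 40 nM of pooled siRNAs against 1 of 33 genes, with a non-targeting siRNA (nt, 3 libraries), or with no siRNA (Mock, 5 libraries), and were harvested on day 6. Each library is bulk RNA, and the cassette was delivered by infection and not carried in the germline.

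The extracellular matrix of fibroblasts is turned over by proteases that are held in check by dedicated inhibitors. MMP14 is a membrane-bound metalloproteinase that cleaves fibrillar collagen and converts the zymogen of MMP2 to the active enzyme, which degrades collagen IV and denatured collagen. TIMPs bind the active site of metalloproteinases in a tight complex. TIMP2 in addition bridges MMP14 and the MMP2 zymogen at the cell surface and so takes part in its activation, TIMP3 is anchored in the matrix and also blocks ADAM and ADAMTS proteases, and TIMP1 is a soluble inhibitor that acts poorly on MMP14. PRSS23 is a trypsin-like protease that belongs to another class and is not inhibited by TIMPs. Transcript levels say nothing of zymogen activation or of complexes of protease and inhibitor.

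Of the 129 libraries with counts, 127 entered the comparisons; 1 siMtf1 and 1 Mock library, with 7981 and 6403 counts, are absent from the normalized table of the study. Totals ran from 29656 to 235292 unique molecular identifier (UMI) counts per library, and replicate 3 was the deepest, with a median of 127079 against 64227 in replicate 1 and 63122 in replicate 2. Levels are given in CPM, the counts of a gene scaled to a common library total. CEL-Seq2 counts 1 end per transcript, so that levels of different genes can be set side by side without a correction for length. The counts behind the levels were small: the median library held 38 counts of Timp2, 10 of Timp1, 7 of Timp3, and 4 each of Mmp2, Mmp14 and Prss23. In 28 libraries at least 1 of the 6 genes had no count, which allows up to 3 counts, or 30.0 to 121 CPM in those libraries. Mmp14 did not pass the filter on low counts and was tested in a second fit, and the other 5 were tested among 3013 genes. The differences between conditions were tested with edgeR's quasi-likelihood test, with p-values adjusted by Benjamini-Hochberg over all genes tested in a comparison. Every adjusted p below is from that test unless DESeq2 or limma is named. A difference was called at an adjusted p under 0.05, and each fold change is given on the log2 scale with its standard error (SE). Where libraries of conditions are said not to overlap, the share of all genes that separate likewise was not counted. Replicates are separate libraries per the labels, which do not say that they come from separate embryos, so that p-values measure the spread between libraries.

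The targets of 5 siRNAs, those in which a member was called, were looked up, and their counts were too low to check a knockdown. Wdr5 had 2, 3 and 2 counts in the siWdr5 libraries, 2, 3 and 4 in nt and 2, 1, 1, 1 and 1 in Mock. Bard1 had 0, 0 and 0 counts in siBard1, 2, 0 and 0 in nt and 0, 1, 2, 0 and 0 in Mock. Brca1 had 1, 1 and 2 counts in siBrca1, 0, 1 and 1 in nt and 1, 0, 0, 0 and 0 in Mock. Cdk1 had 1, 2 and 1 counts in siCdk1, 1, 3 and 1 in nt and 1 in each Mock library. These counts are not scaled for depth. Brca1 was not lower in the libraries labelled siBrca1 than in nt or Mock, with 4 counts in all against 2 and 1. Ep300 was not lower in the libraries labelled siEp300. It had 4, 4 and 9 counts, against 0, 3 and 0 in nt and 0, 1, 3, 0 and 5 in Mock. Wdr5 and Cdk1 showed no clear drop either, with 7 counts in siWdr5 against 9 in nt and 6 in Mock, and 4 in siCdk1 against 5 and 5. The counts are too low to bear out any of these 5 labels. Which siRNA a library received rests on the column names of the tables. The study checked the knockdown of Wdr5, Bard1 and Brca1 by RT-qPCR, at an earlier day than these libraries, and reports that it was efficient. Those measurements were not analysed here. At Day00 the cells held the transcripts of all 14 fibroblast markers, whose summed level ran from 7615 to 8864 CPM. Of 8 endothelial markers 2 had a count, Emcn and Egfl7 (0 to 20.5 CPM in sum). Of 10 macrophage markers 4 had a count, Cd68, Lyz2, Adgre1 and Fcer1g (132 to 246 CPM in sum), and the rest were at 0.

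The siRNAs with the most members called against nt in the fit of all libraries were those against Wdr5, Bard1 and Brca1, with 5, 4 and 3. WDR5 is a core subunit of the histone H3K4 methyltransferase complexes, and BRCA1 and BARD1 form a ubiquitin ligase that acts in DNA repair. For each of these targets, 2 of the pooled siRNAs are shown by their antisense (guide) strand, 5′ to 3′, to show which transcripts they were designed against and that their seeds differ. Capitals mark the seed, bases 2 to 8, and the 6 seeds shown are all different; only these sequences were used here.
siWdr5, sequence 1, exon 3: cAUAGUUUggcuuaacuggtg
siWdr5, sequence 2, exon 7: cACGGUUGaaaugaacggctg
siBard1, sequence 1, exon 2: aGAAGAUGugcucacaucctc
siBard1, sequence 2, exon 3: uUGUCGGUuuaucuugaggtc
siBrca1, sequence 1, exon 3: aAGGACAUugugaaggccctt
siBrca1, sequence 2, exon 4: aCUAAACCuugugcuuccctg

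Prss23 lies at chr7:89507783-89527187 on the minus strand, Mmp2 at chr8:92827291-92853420 on the plus strand, Timp3 at chr10:86300372-86349506 on the plus strand, Timp2 at chr11:118301069-118355740 on the minus strand, Mmp14 at chr14:54431612-54445364 on the plus strand and Timp1 at chrX:20870166-20874735 on the plus strand (GENCODE vM21, GRCm38). Exons of Timp3 overlap exons of Syn3 and those of Prss23 overlap Prss23os, both on the opposite strand. Syn3 had 45 counts in all libraries together against 1665 of Timp3, and Prss23os had 2 against 877 of Prss23. Promoters are shown for Timp2, Timp3 and Prss23, the 3 members with the most called differences in the results below. The 250 bases before the RefSeq start are printed 5′ to 3′ on the strand of the gene (GRCm38.p6), and for Prss23, which has 7 RefSeq starts, those before the outermost one. RefSeq and GENCODE starts differ: the Timp2 window lies within the GENCODE span given above, and the Timp3 window runs past the GENCODE start. Capitals mark matches to GGGCGG, the GC box bound by SP1, or to its reverse complement CCGCCC.
Timp2 (chr11:118355412-118355661, minus strand): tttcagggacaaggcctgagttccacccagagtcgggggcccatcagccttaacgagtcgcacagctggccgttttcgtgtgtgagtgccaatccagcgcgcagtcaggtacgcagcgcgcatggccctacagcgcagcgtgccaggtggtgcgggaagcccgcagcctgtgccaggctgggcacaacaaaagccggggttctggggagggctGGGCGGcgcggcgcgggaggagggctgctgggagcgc
Timp3 (chr10:86300162-86300411, plus strand): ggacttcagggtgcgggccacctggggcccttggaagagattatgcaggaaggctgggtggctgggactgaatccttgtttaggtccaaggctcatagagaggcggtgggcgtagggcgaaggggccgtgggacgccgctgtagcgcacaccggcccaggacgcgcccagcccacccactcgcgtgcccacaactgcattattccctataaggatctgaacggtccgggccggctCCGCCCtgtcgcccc
Prss23 (chr7:89527188-89527437, minus strand): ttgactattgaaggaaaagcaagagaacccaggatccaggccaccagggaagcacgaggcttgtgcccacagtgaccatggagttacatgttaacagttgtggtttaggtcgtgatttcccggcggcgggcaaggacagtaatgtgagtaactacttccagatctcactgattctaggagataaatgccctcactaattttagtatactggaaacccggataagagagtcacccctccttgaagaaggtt

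Windows of Timp2 and Timp3 each held 1 GC box, the windows of Timp1 and Mmp14 held 1 and 2, and the one printed for Prss23 held none, although those before 4 of its other starts did. Over all 32851 promoters of the table, 32.7% of windows of this length held at least 1. The AP-1 site TGANTCA was found in 6.75% of all windows and the TATA box TATAAA or its reverse complement TTTATA in 12.4%. Neither was found in the windows of Timp1, Timp2, Timp3 and Mmp14, and the AP-1 site was found before 2 of the inner Prss23 starts. GC content was 68.0% for Timp2, 65.6% for Timp3 and 47.6% for Prss23, with a median of 52.4% over all promoters.

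The time course asks how these genes change as fibroblasts start to reprogram. From Day00 to Day06 the levels of Prss23, Timp3 and Timp2 fell, by a factor of 10.9, 5.62 and 1.79 in the fit, while no difference was called for Timp1, Mmp2 or Mmp14. Over all days, 4 of the 5 tested members differed (all but Mmp2), against 42.5% of all genes tested. Without replicate 3, Mmp2 was called as well (adjusted p = 0.0307).

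Prss23 showed the steepest change. It was at 636, 974 and 505 CPM in the 3 libraries of Day00, at 208, 228 and 182 CPM on Day02, and at 29.7, 72.3 and 68.2 CPM on Day06. The libraries of Day00 all lay above those of Day02, and these above every library of Day03 to Day06. The day means followed each other down without exception, from 705 to 431, 206, 145, 112, 84.7 and 56.7 CPM. Against Day00 the log2 fold change was -1.72 (SE 0.31, adjusted p = 5.4e-06) on Day02 and -3.45 (SE 0.38, adjusted p = 1.72e-14) on Day06; on Day01 it was -0.67 (SE 0.29, adjusted p = 0.132) and not called. The step from Day01 to Day02 was the single step between consecutive days that was called (log2 fold change -1.05, SE 0.33, adjusted p = 0.0375). It was not called when any 1 replicate was left out (-1.04, -0.84 and -1.20 without replicates 1, 2 and 3, adjusted p = 0.145, 0.443 and 0.0888).

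Timp3 fell over the days. It was at 842, 783 and 1167 CPM on Day00 and lay between 455 and 699 CPM in the 9 libraries of Day01 to Day03. On Day04 it was at 336, 294 and 261 CPM, on Day05 at 216, 146 and 161 CPM, and on Day06 at 208, 127 and 170 CPM. No library of Day01 to Day03 reached the lowest of Day00, and none of Day04 to Day06 reached the lowest of Day01 to Day03. The drops from Day00 to Day01 (log2 fold change -0.79, SE 0.24, adjusted p = 0.0168) and from Day03 to Day04 (-0.91, SE 0.26, adjusted p = 0.00958) were called. The first was lost without replicate 1 (-0.79, adjusted p = 0.0667) or replicate 3 (-0.46, adjusted p = 0.473), and the second without any 1 replicate (-0.78, -0.93 and -0.91, adjusted p = 0.125, 0.0590 and 0.0777). From Day04 to Day05 the libraries did not overlap either, but the difference was not called (-0.77, SE 0.30, adjusted p = 0.120). Between Day00 and Day06 the change was -2.49 (SE 0.28, adjusted p = 1.76e-14), and the means of Day05 and Day06, at 174 and 168 CPM, did not differ beyond their spread.

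Timp2 had the highest mean of the members on every day and its course was not a steady fall. It was at 1006, 1736 and 1308 CPM on Day00, at 619, 880 and 592 CPM on Day01, and at 1049, 1066 and 1056 CPM on Day03. On Day05 it was at 596, 518 and 477 CPM and on Day06 at 1098, 795 and 504 CPM. All libraries of Day01 lay under all of Day00, the libraries of Day03 lay within the range of Day00, and those of Day06 spread over a range that overlaps Day00. Against Day00 it fell on Day01 (log2 fold change -0.96, SE 0.21, adjusted p = 0.000233) and Day05 (-1.36, SE 0.21, adjusted p = 6.45e-09), with a smaller change on Day03 (-0.35, SE 0.19, adjusted p = 0.286). The Day06 change of -0.84 (SE 0.20, adjusted p = 0.0005) was not called without replicate 2 (-0.64, adjusted p = 0.0634), without replicate 3 (-0.59, adjusted p = 0.101) or without the replicate block (-0.78, adjusted p = 0.0563).

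Timp1 dipped and came back. It was at 226, 254 and 257 CPM on Day00, at 413, 379 and 307 CPM on Day01, at 210, 90.3 and 79.2 CPM on Day03 and at 247, 243 and 254 CPM on Day04. The libraries of Day03 lay under all those of Day00, Day01 and Day04, and those of Day00 and Day04 covered nearly the same range. It fell from Day01 to Day02 (log2 fold change -1.06, SE 0.32, adjusted p = 0.0296) and rose from Day03 to Day04 (1.07, SE 0.36, adjusted p = 0.0294). The fall was not called without any 1 replicate (-1.03, -0.91 and -1.20 without replicates 1, 2 and 3, adjusted p = 0.152, 0.294 and 0.0810), and the rise not without replicate 2 (1.05, adjusted p = 0.128) or replicate 3 (0.67, adjusted p = 0.414). The rise was also not called with DESeq2 (0.94, adjusted p = 0.0934), with RLE size factors (0.94, adjusted p = 0.0647) or without the block (1.05, adjusted p = 0.0811). The lower level on Day03 than on Day00 (-1.08, SE 0.38, adjusted p = 0.0475) was lost without replicate 2 (-0.94, adjusted p = 0.248) or replicate 3 (-0.71, adjusted p = 0.490), with DESeq2 (adjusted p = 0.0607) and without the block (adjusted p = 0.121). On Day06 it was at 401, 217 and 225 CPM, with a log2 fold change of 0.13 against Day00 (SE 0.32, adjusted p = 0.824) whose sign changed with RLE size factors (-0.03), with DESeq2 (-0.02) and without replicate 1 (-0.15). The difference among all days was called (adjusted p = 0.00228), but not without replicate 2 (adjusted p = 0.0715) or replicate 3 (adjusted p = 0.0753).

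For the metalloproteinases, the data were too sparse to follow a course. Mmp2 had 8, 12 and 2 counts on Day00, or 164, 254 and 16.6 CPM, and 3, 0 and 4 counts on Day01. Its level on Day06 was 44.5, 72.3 and 136 CPM, and the fold change against Day00 had a 95% interval from -1.20 to 0.96 on the log2 scale, so that a change of up to about that size in either direction was not detectable at this depth. The sign of this fold change turned without replicate 1 or replicate 2, and without replicate 3 the value lay below the interval. Without replicate 3, where Day00 was lowest, a lower Mmp2 was called on Day01 (log2 fold change -3.06, adjusted p = 0.0108) and Day02 (-2.14, adjusted p = 0.0403). Mmp14 was at 82.1, 84.7 and 41.4 CPM on Day00 and 29.7, 36.1 and 27.3 CPM on Day06, from 13 and 8 counts in all, and the Day06 libraries all lay under those of Day00. In the second fit the change was -0.998 (SE 0.70, adjusted p = 0.340).

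**Figure D1:**
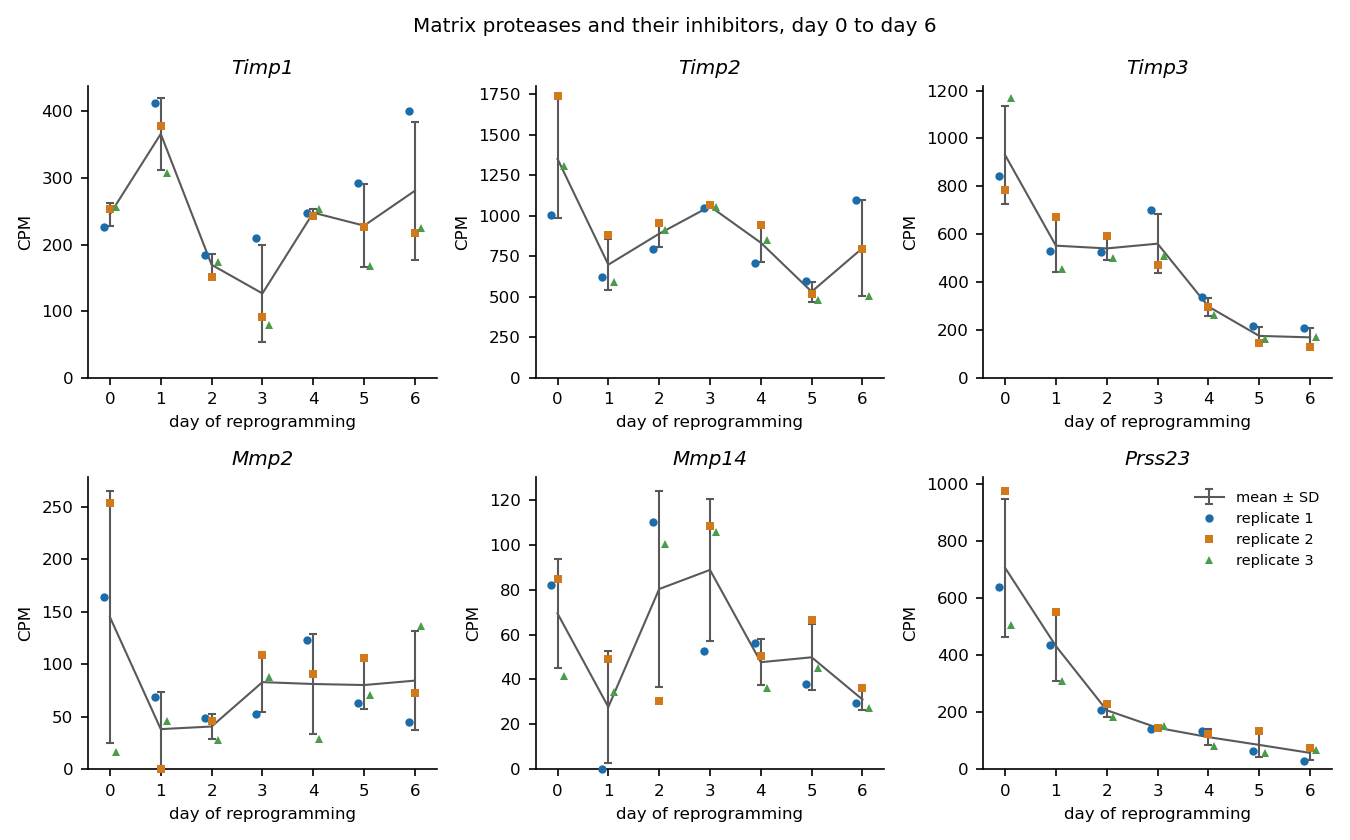
Level in CPM (vertical axis, linear, a different scale in each panel) of each member by day of reprogramming (horizontal axis), with 1 symbol per library and replicate and lines through the mean ± SD of 3 libraries. Prss23 and Timp3 ended the course at 56.7 and 168 CPM from 705 and 931, Timp2 stayed above the other members, and Timp1 was lowest on Day03.

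Counted over the members, 2 of 5 were called on Day01 against Day00, where 9.89% of all genes were, and 3 of 5 on each of the later days, where 11.6%, 10.9%, 18.7%, 31.9% and 22.2% were, from Day02 to Day06. The 17 calls are 16 of a lower level in Prss23, Timp3 and Timp2 and 1 of a lower level of Timp1 on Day03. Those comparisons share the 3 Day00 libraries. Among them, Timp2 on Day02 (-0.61, adjusted p = 0.0233) was lost without any 1 replicate (adjusted p = 0.0609, 0.418 and 0.0616), Timp2 on Day04 (-0.70, adjusted p = 0.00337) without replicate 2 (adjusted p = 0.162), Timp3 on Day02 (-0.84, adjusted p = 0.0064) without replicate 3 (adjusted p = 0.264), and Timp3 on Day03 (-0.79, adjusted p = 0.0140) without replicate 2 (adjusted p = 0.0875) or replicate 3 (adjusted p = 0.405). Between consecutive days 7 steps were called: 2 from Day00 to Day01, 2 from Day01 to Day02 (4.81% of all genes), 0 from Day02 to Day03 (2.82%), 2 from Day03 to Day04 (11.9%), 1 from Day04 to Day05, the lower Timp2 (4.78%, log2 fold change -0.66, adjusted p = 0.0375, and 0.321 and 0.339 without replicates 2 and 3 and 0.0725 with DESeq2), and 0 from Day05 to Day06 (7.87%). In the 2 steps without a call, edgeR gave 0 and 1 members with an unadjusted p under 0.05, and DESeq2 and limma also called 0. Without the replicate block the 17 calls became 10 and the 7 became 1. The median log2 fold change on Day06 was -0.84 over the 5 members and 0.05 over all genes. Over the same days the summed level of the 14 fibroblast markers went from 7615 to 8864 CPM on Day00 to 3253 to 4169 CPM on Day06, and that of 6 smooth muscle markers from 4372 to 5967 CPM to 145 to 490 CPM, with all 14 and all 6 detected on both days. Of the 11 epithelial markers, 2 had a count on Day00 and 8 on Day06. The 10 pluripotency markers summed to 0 to 21.2 CPM on Day00 and 27.3 to 72.3 CPM on Day06. The 10 macrophage markers summed to 132 to 246 CPM on Day00, from Cd68, Lyz2, Adgre1 and Fcer1g. On Day06 they summed to 27.3 to 89.0 CPM, from Ptprc, Lyz2 and C1qb. Csf1r, C1qa, Tyrobp and Cd14 were at 0 on both days. In bulk RNA a smaller share of cells that express a gene cannot be told apart from less RNA per cell, and the part of these markers in the results was not tested.

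Transfected control cells were then set against untransfected cells of the same day. Timp1, Timp2 and Timp3 were lower in nt than on Day06, by 1.03 (SE 0.35, adjusted p = 0.0177), 0.81 (SE 0.23, adjusted p = 0.0048) and 1.66 (SE 0.45, adjusted p = 0.00314) on the log2 scale. The nt libraries held 66.6, 59.8 and 40.8 CPM of Timp3 where those of Day06 held 208, 127 and 170, without overlap. For Timp2 they held 350, 568 and 384 CPM, so that 1 nt library lay above the lowest of Day06. Prss23 was at 66.6, 74.8 and 16.3 CPM in nt and Mmp2 at 16.7, 44.9 and 40.8 CPM, and neither was called (adjusted p = 0.662 and 0.0742). The 3 calls compare with 26.6% of all genes. Each of them was lost in at least 1 of the fits without a replicate: Timp1 and Timp2 without replicate 1 (-0.85, adjusted p = 0.167, and -0.40, adjusted p = 0.310), Timp1 without replicate 2 (-0.94, adjusted p = 0.0957), and Timp3 without replicate 3 (-1.42, adjusted p = 0.0988). Timp1 was also not called with nt and Mock as 1 control (-0.66, adjusted p = 0.0606), and Timp2 not without the block (-0.85, adjusted p = 0.0512). Limma on the deposited log2 values called none of Timp1, Timp2 and Timp3 (adjusted p = 0.158, 0.0680 and 0.142). The smooth muscle markers summed to 73.5 to 83.3 CPM in nt and 145 to 490 CPM on Day06, and the fibroblast markers to 2410 to 3381 and 3253 to 4169 CPM, and their part in the result was not tested. Between Mock and nt 0 of 5 members were called by edgeR, DESeq2 or limma, 0 had an unadjusted p under 0.05, and 1.56% of all genes were called. Mock held 258, 240, 144, 298 and 164 CPM of Timp1 against 167, 105 and 131 in nt, a log2 difference of 0.68 with a 95% interval from -0.04 to 1.40.

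**Figure D2:**
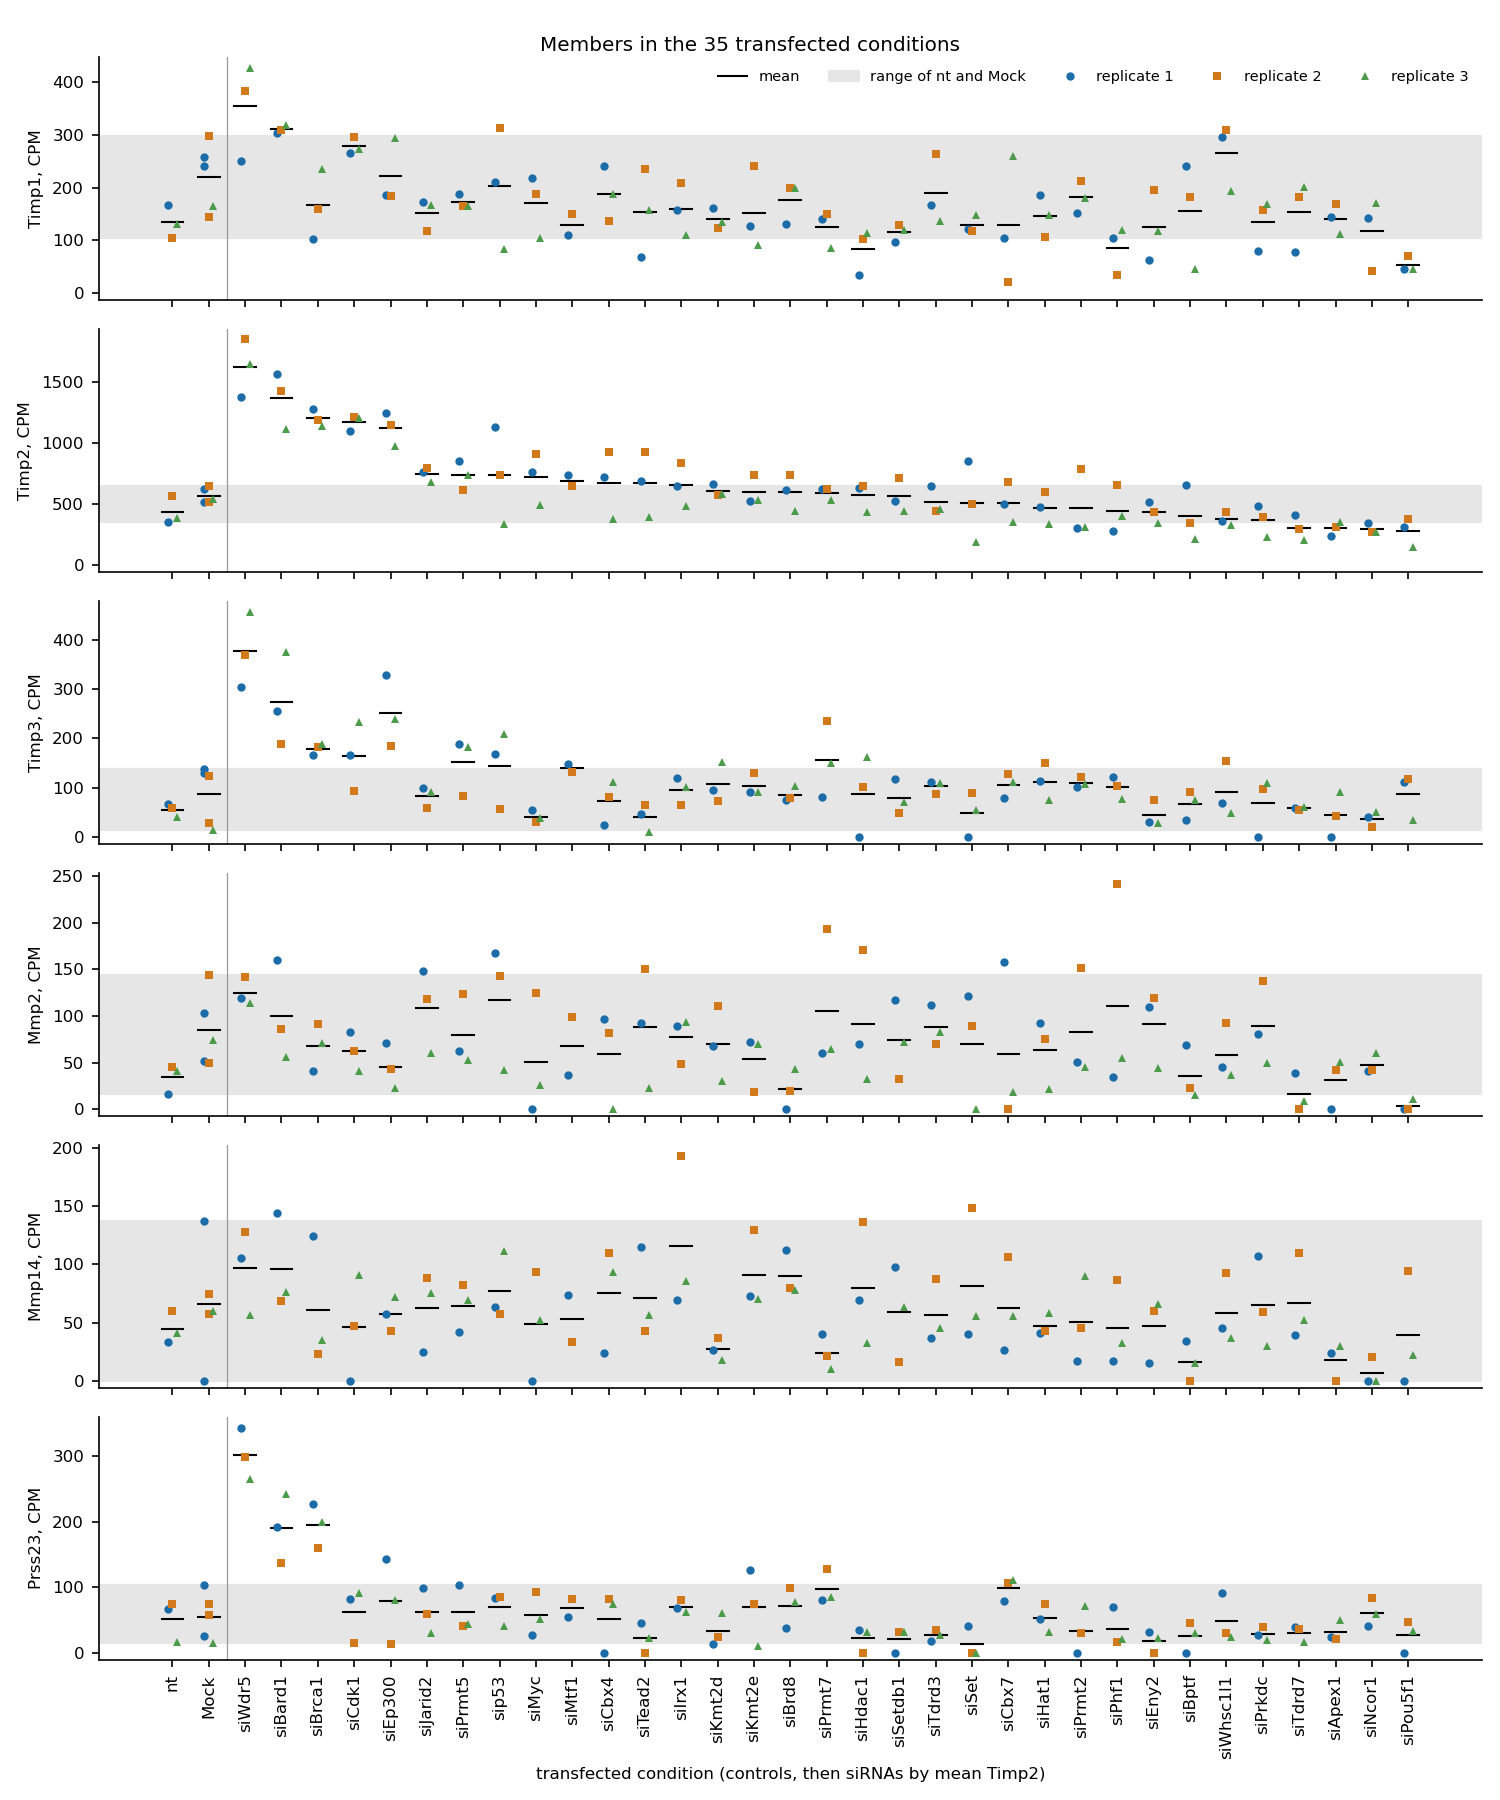
Level in CPM (vertical axes, linear) of each member in nt, Mock and the 33 siRNA conditions (horizontal axis, siRNAs in falling order of mean Timp2), with 1 symbol per library, a bar for the mean and a grey band for the range of the 8 nt and Mock libraries. For Timp2 every library of the first 6 siRNAs and of siMtf1 (2 libraries) stands above the band, and for Prss23 every library of the first 3 does.

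The screen asks which regulators alter the state of the cells on day 6. Among the 35 transfected conditions all 5 tested members differed, where 45.1% of all genes did, and Mmp14 differed in the second fit (adjusted p = 0.036). Mmp2, with an adjusted p of 0.0381, was not called without replicate 2 (adjusted p = 0.403), without replicate 3 (adjusted p = 0.0557) or without the block (adjusted p = 0.271). Against nt, 16 of 165 pairs of a member and an siRNA were called, all of them higher, where 2.57% of all pairs of a gene and an siRNA were. The 33 comparisons share the 3 nt libraries, and the members were picked with earlier results of these data known. The 16 pairs fell on 5 siRNAs: 5 members were called in siWdr5, 4 in siBard1, 3 in siBrca1, and 2 each in siCdk1 and siEp300. Timp2 and Timp3 were called in all 5 of them, Prss23 in 3, Timp1 in 2 and Mmp2 in 1.

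All 5 tested members were higher in siWdr5 than in nt, against 27.2% of all genes called in either direction and 12.2% called higher. Timp2 was at 1374, 1848 and 1642 CPM in siWdr5, a level above each of the 8 nt and Mock libraries, which ran from 350 to 645 CPM, and the log2 fold change against nt was 1.90 (SE 0.21, adjusted p = 1.31e-14). Timp3 was at 304, 370 and 456 CPM, and nt and Mock at 14.9 to 137 CPM, again without overlap (log2 fold change 2.83, SE 0.39, adjusted p = 7.77e-10). For Prss23 the 3 libraries held 343, 299 and 266 CPM and the controls 14.9 to 103 CPM (log2 fold change 2.68, SE 0.45, adjusted p = 4.82e-07). These 3 genes were higher in every siWdr5 library than in any control, and how many of all genes separate in this way was not counted.

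Timp1 and Mmp2 rose less clearly. Timp1 was at 251, 384 and 427 CPM in siWdr5, above all 3 nt libraries, but its lowest library lay within the range of Mock (log2 fold change against nt 1.42, SE 0.33, adjusted p = 0.000368). Mmp2 was at 119, 142 and 114 CPM from 9, 10 and 12 counts, above the nt libraries and within the range of Mock, which held 51.6, 103, 144, 49.6 and 74.6 CPM. Its log2 fold change of 1.69 (SE 0.61, adjusted p = 0.0268) was not called against nt and Mock together (1.10, adjusted p = 0.0599), without any 1 of the replicates (1.49, 1.66 and 2.04 without replicates 1, 2 and 3, adjusted p = 0.105, 0.113 and 0.0685) or without the replicate block (1.74, adjusted p = 0.0718). Limma on the deposited log2 values called neither Timp1 nor Mmp2 (adjusted p = 0.165 and 0.341). Mmp14 was at 106, 128 and 57.0 CPM against 33.3, 59.8 and 40.8 in nt (log2 fold change 1.04, SE 0.59, adjusted p = 0.184).

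The 3 inhibitors and Prss23 were higher in siBard1 than in nt, where 10.3% of all genes were called and 5.54% called higher. Timp2 was at 1565, 1422 and 1118 CPM (log2 fold change 1.63, SE 0.21, adjusted p = 2.48e-10) and Timp3 at 255, 188 and 375 CPM (2.45, SE 0.41, adjusted p = 1.29e-06). Timp1 was nearly the same in its 3 libraries, at 303, 308 and 319 CPM, all above nt and Mock (1.23, SE 0.34, adjusted p = 0.00724), and Prss23 was at 192, 137 and 243 CPM, also above both (2.14, SE 0.48, adjusted p = 0.000599). Without replicate 3, Timp2 was the single member still called, and Timp1, Timp3 and Prss23 had log2 fold changes of 1.16, 1.76 and 1.18 (adjusted p = 0.129, 0.0527 and 0.343). Without replicate 2, Timp1 was at 1.11 (adjusted p = 0.0773). Limma on the deposited log2 values did not call Timp1, Timp3 or Prss23 (adjusted p = 0.322, 0.0707 and 0.257).

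In the libraries labelled siBrca1, where the Brca1 counts were not lower than in nt, 3 members were higher than in nt, and 4.22% of all genes were called and 2.49% called higher. Timp2 was at 1281, 1185 and 1142 CPM (log2 fold change 1.48, SE 0.23, adjusted p = 2.15e-07), Timp3 at 165, 182 and 188 CPM (1.75, SE 0.48, adjusted p = 0.016) and Prss23 at 227, 160 and 200 CPM (2.09, SE 0.51, adjusted p = 0.00584). The libraries of all 3 lay above every nt and Mock library, and how common this is among all genes was not counted. Timp1, at 103, 160 and 236 CPM, spread over the range of the controls and was not called (adjusted p = 0.687). Timp3 lost its call without any 1 replicate (log2 fold changes from 1.44 to 1.89, adjusted p = 0.0552, 0.0944 and 0.327 without replicates 1, 2 and 3), and Prss23 without replicate 3 (1.45, adjusted p = 0.324). Against the mean of the 35 transfected conditions Timp3 was at 0.90 (adjusted p = 0.0854), and with the filter of 10 counts at 1.67 (adjusted p = 0.117), and was not called. Limma on the deposited log2 values called neither Timp3 nor Prss23 (adjusted p = 0.0714 and 0.0863).

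In siCdk1 and in the libraries labelled siEp300, where the Ep300 counts were not lower than in nt, Timp2 and Timp3 were called higher and no protease was. Cdk1 encodes the kinase that drives entry into mitosis and Ep300 a histone acetyltransferase. Timp1 was at 266, 296 and 273 CPM in siCdk1, above all nt libraries and within the range of Mock (log2 fold change 1.05, adjusted p = 0.0736), and was called with RLE size factors (adjusted p = 0.0493), in a fit of only the 2 conditions (adjusted p = 0.0166) and against the mean of the 35 transfected conditions (adjusted p = 0.0208). In siEp300 it was at 186, 184 and 294 CPM (0.86, adjusted p = 0.108) and was called against that mean (adjusted p = 0.0246). Timp2 was at 1095, 1215 and 1202 CPM in siCdk1 (log2 fold change 1.44, SE 0.22, adjusted p = 3.15e-07) and at 1244, 1149 and 973 CPM in siEp300 (1.36, SE 0.21, adjusted p = 3.81e-07). Timp3 was at 166, 93.4 and 232 CPM in siCdk1, with 1 library within the range of Mock (1.68, SE 0.46, adjusted p = 0.02), and at 329, 184 and 240 CPM in siEp300, above all controls (2.20, SE 0.41, adjusted p = 3.77e-05). Prss23, by contrast, held 83.0, 15.6 and 90.9 CPM in siCdk1 and 143, 14.2 and 81.4 CPM in siEp300, which overlapped the controls, with 95% intervals of the log2 fold change from -0.64 to 1.74 and from -0.23 to 1.90. The 2 calls each compare with 2.59% of all genes called in siCdk1 and 5.68% in siEp300. The call of Timp3 in siCdk1 was lost without replicate 1 (1.84, adjusted p = 0.0666), without replicate 3 (1.02, adjusted p = 0.650), without the block (1.65, adjusted p = 0.0778), with the filter of 10 counts (1.69, adjusted p = 0.0960) and against the mean of the 35 transfected conditions (0.84, adjusted p = 0.0704). With limma on the deposited log2 values, Timp3 in siCdk1 was not called either (adjusted p = 0.671). Neither call in siEp300 was kept with limma (adjusted p = 0.174 for Timp2 and 0.814 for Timp3).

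**Figure D3:**
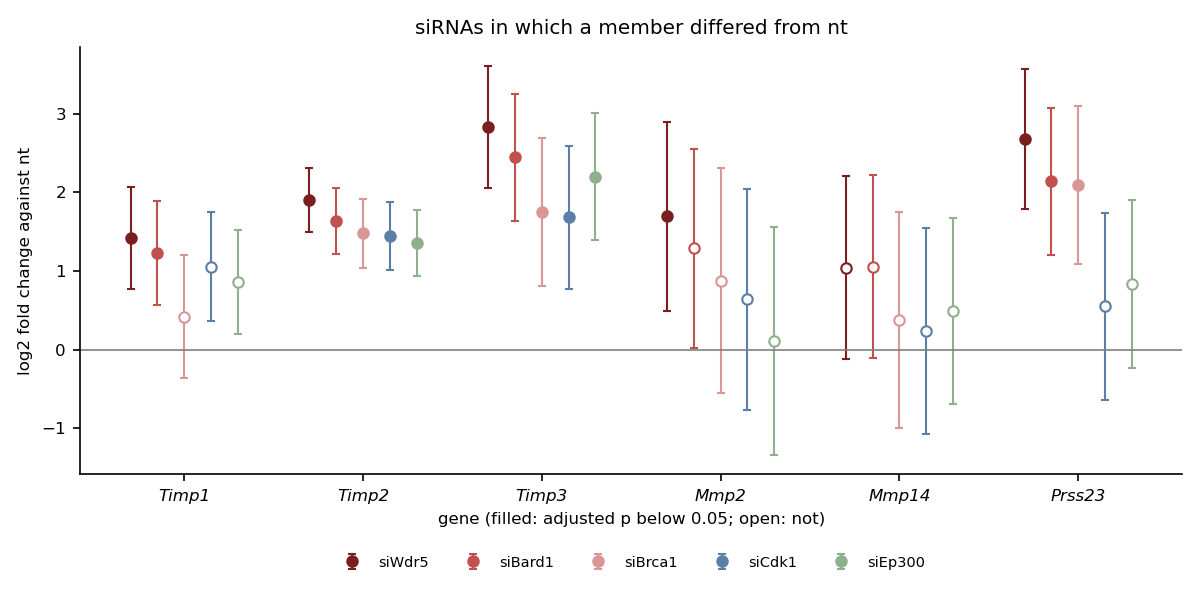
Log2 fold change against nt (vertical axis) of each member (horizontal axis) in the 5 siRNA conditions in which a member was called, with 95% intervals from the standard error; filled symbols have an adjusted p under 0.05 and Mmp14 comes from the second fit. Timp2 lies between 1.36 and 1.90 in all 5, and Prss23 is filled in siWdr5, siBard1 and siBrca1.

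Marker levels in these 5 conditions are given beside the controls, with no test. The summed level of the 14 fibroblast markers ran from 6313 to 6929 CPM in siWdr5 and from 3348 to 5126 CPM in the libraries of the other 4, with 2410 to 3381 CPM in nt and 2855 to 4554 CPM in Mock, so that siWdr5 lay above both controls and the other 4 overlapped Mock. That of the 6 smooth muscle markers ran from 218 to 1029 CPM over the 5 conditions and from 49.6 to 231 CPM in nt and Mock. All 14 and all 6 were detected in each of the 5, while Myh11 and Des had no count in nt or Mock. The epithelial markers summed to 26.4 to 56.9 CPM in siWdr5, 0 to 69.4 in siBard1, 20.7 to 137 in siBrca1, 40.4 to 109 in siCdk1 and 100 to 184 in siEp300, with 131 to 150 CPM in nt and 24.8 to 206 CPM in Mock, which covers siWdr5. Krt7, Cldn6, Cldn7 and Ocln were at 0 in siWdr5 and nt. The 10 pluripotency markers summed to 9.49 to 56.9 CPM in siWdr5, 31.9 to 90.2 in siBard1 and 62.0 to 91.2 in siBrca1. They summed to 40.4 to 140 CPM in siCdk1 and 14.3 to 42.6 in siEp300, with 40.8 to 167 in nt and 59.7 to 181 in Mock. Macrophage markers summed to 0 to 114 CPM in siWdr5, from Cd68 and Lyz2, and to 16.3 to 44.9 CPM in nt, from Lyz2 and Cd14. Of the endothelial markers, Tek and Egfl7 had a count in siWdr5, and Kdr, Tek and Egfl7 had one in nt. The part of these markers in the results was not tested.

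The 3 siRNAs against Wdr5, Bard1 and Brca1 were compared directly, without nt. Between siWdr5 and siBard1 0 of 5 members were called (8.36% of all genes were) and the 95% interval of the difference in Timp2 was -0.08 to 0.62, in Timp3 -0.16 to 0.93, and in Prss23 -0.12 to 1.20, on the log2 scale. Between siBrca1 and siBard1 0 of 5 were called as well (0.863% of all genes), and the interval was -0.54 to 0.23 for Timp2, -0.79 to 0.70 for Prss23, -1.48 to -0.13 for Timp1 and -1.37 to -0.02 for Timp3, the last 2 on the side of a lower level in siBrca1. With edgeR 0 and 2 members had an unadjusted p under 0.05 in these pairs, and DESeq2 and limma called 0. Between siWdr5 and siBrca1 2 were called, against 9.99% of all genes: Timp1 and Timp3 were higher in siWdr5, by 1.00 (SE 0.34, adjusted p = 0.0374) and 1.08 (SE 0.33, adjusted p = 0.0192). The libraries of siWdr5 lay above all those of siBrca1 for both genes. They did so for Prss23 too, which was not called (0.59, SE 0.36, adjusted p = 0.356). Timp1 was not called when any 1 replicate was left out (1.00 became 0.98, 0.87 and 1.31 without replicates 1, 2 and 3, adjusted p = 0.113, 0.256 and 0.100), nor without the block (1.02, adjusted p = 0.0998), while Timp2 (0.42, 95% interval 0.05 to 0.80, adjusted p = 0.153) was called with RLE size factors (0.55, adjusted p = 0.0492) and in a fit of only the 2 conditions (0.48, adjusted p = 0.0244). Timp3 was not called without replicate 2 (1.07, adjusted p = 0.124), without replicate 3 (0.99, adjusted p = 0.209) or without the block (1.07, adjusted p = 0.0827).

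The order of the transfected conditions can be read for each gene. For Timp2, siWdr5, siBard1, siBrca1, siCdk1 and siEp300 followed each other with overlapping libraries, and then came a gap to the next, siJarid2, at 766, 796 and 680 CPM, which lay fully under siEp300. For Prss23, the libraries of siWdr5 lay above those of siBrca1 without overlap, a difference that the direct test did not call, siBrca1 and siBard1 overlapped, and the next, siCbx7, at 78.8, 106 and 111 CPM, lay under siBard1. For Timp3, Mmp2 and Mmp14 all 34 pairs of neighbours overlapped. At the low end, siPou5f1 was the lowest condition for Timp1, Timp2 and Mmp2. POU5F1, or OCT4, is 1 of the factors that the cassette encodes.

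In siPou5f1, Timp1 was at 45.0, 71.0 and 45.1 CPM, under all nt and Mock libraries, and Timp2 at 315, 378 and 146 CPM. Against nt neither was called, but against nt and Mock together both were lower (log2 fold changes -1.71 and -0.95, adjusted p = 0.0107 and 0.013). Mmp2 had 0, 0 and 1 counts in siPou5f1 against 9 in the 3 nt libraries and 17 in the 5 Mock libraries; scaled by library size, nt was 6.33 times as high with an exact 95% counting interval from 0.878 to 278, and Mock 14.2 times with an interval from 2.23 to 594. Over the other 28 siRNAs, siPou5f1 included, edgeR called 0 of 140 pairs with a member (DESeq2 0, limma 0), 24 pairs had an unadjusted p under 0.05, and 1.24% of all gene and siRNA pairs were called. Against the mean of the 35 transfected conditions, 7 of these pairs were called, all lower: Timp1, Timp2 and Mmp2 in siPou5f1 (-1.57, -1.14 and -2.95, adjusted p = 0.00303, 4.25e-05 and 0.0164) and Timp2 in siApex1, siNcor1, siPrkdc and siTdrd7 (-0.79, -0.91, -0.74 and -0.96). Without replicate 3 a higher Timp2 was called in sip53 (1.11, adjusted p = 0.0338), and in the fit of only the 2 conditions in siPrmt5 (0.83, adjusted p = 0.00707). Log2 fold changes against nt ran from -0.76 to 0.80 for Timp2, from -1.33 to 0.91 for Timp1, from -0.61 to 1.57 for Timp3, from -2.33 to 1.48 for Mmp2 and from -2.13 to 1.18 for Prss23. For Timp3 and Mmp2 each, 29 of the 33 siRNAs had a fitted value above nt, and the uncalled Timp3 values of sip53 and siPrmt5 (both 1.57, adjusted p = 0.0802 and 0.0974) came near the called one of siCdk1. Mmp14 was called in 0 of 33 siRNAs, with 2 unadjusted p under 0.05 among those 28, and its highest mean, in siIrx1, was 116 CPM.

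The balance of inhibitor to protease transcripts was expressed as the log2 ratio of the summed counts of Timp1, Timp2 and Timp3 to those of Mmp2, Mmp14 and Prss23 in a library, which does not depend on how libraries are scaled. On Day00 there were 2.87 inhibitor counts for each protease count and on Day06 there were 7.10 (geometric means of 3 libraries). The mean log2 ratio was 1.83 ± 0.49 (SD, n = 9) over Day00 to Day02 and 2.51 ± 0.73 (SD, n = 9) over Day04 to Day06, a difference of 0.68 (two-sided exact permutation test, p = 0.0296), and the ranges of 1.07 to 2.46 and 1.52 to 3.94 overlapped. The test treats libraries of different days as alike, so that its p does not measure the spread between replicates of a day. The day means were 1.52, 1.69 and 2.27 from Day00 to Day02 and 2.56, 2.14 and 2.83 from Day04 to Day06. The direction turned when Prss23 was left out of the protease sum (-0.78, exact p = 0.0624) and when Timp2 alone was set against Mmp2 and Mmp14 (-0.52, exact p = 0.195), and without replicate 1 the difference was 0.38 (exact p = 0.262). The share of Prss23 in the counts of all 6 genes went from 20.2% ± 4.40 (SD, n = 3) on Day00 to 4.38% ± 2.39 on Day06, while that of Timp2 went from 38.7% ± 4.31 to 55.2% ± 9.17.

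In siWdr5, where both kinds of gene were higher than in nt, the ratio was 2.15 ± 0.38 (SD, n = 3) against 2.18 ± 0.68 (SD, n = 8) in nt and Mock, a difference of -0.03 (two-sided exact permutation test, p = 0.970). Its sign changed with 1 count added to each sum in place of 0.5 (0.02) and without replicate 1 (0.28). Without Prss23 the difference was 0.68 (exact p = 0.188), and for Timp2 against Mmp2 and Mmp14 it was 0.72 (exact p = 0.121).

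**Figure D4:**
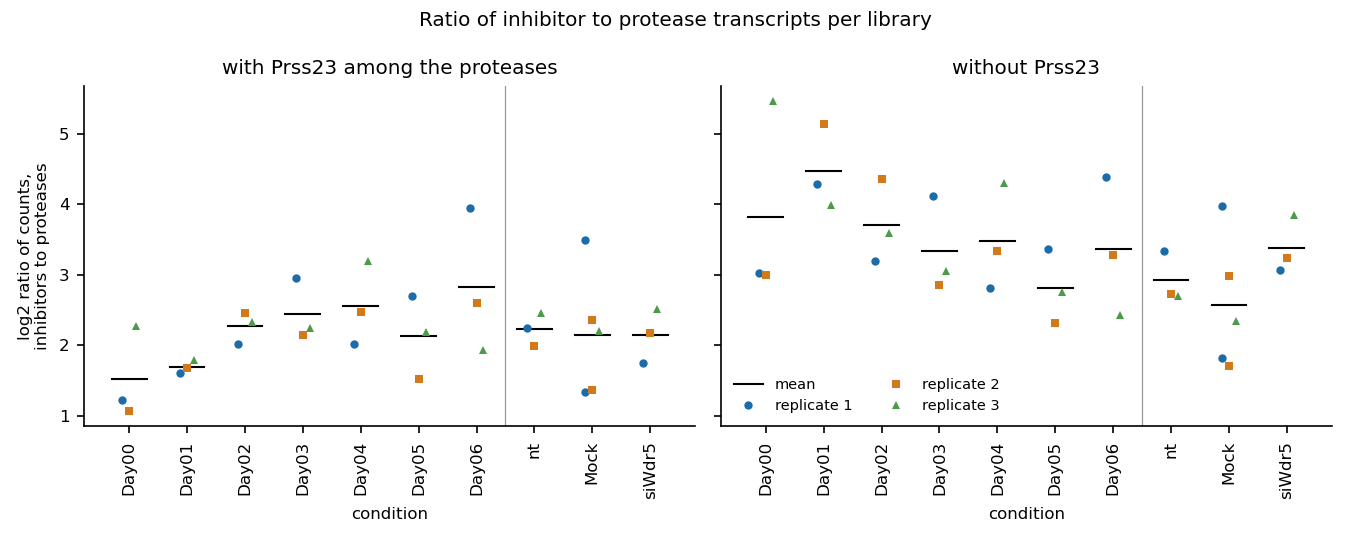
Log2 ratio of inhibitor to protease counts per library (vertical axis) for the days of the time course, nt, Mock and siWdr5 (horizontal axis), with 1 symbol per library and a bar for the mean; Prss23 is among the proteases on the left and left out on the right. On the left the mean is lowest on Day00 and highest on Day06, and on the right Day05 is the lowest of the days.

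Genes of matrix turnover were followed through lists by role, which include the 6 members and were chosen with earlier results of these data known. Few proteases passed the filter on low counts: 3 of 36 metalloproteases, 2 of 16 serine proteases and surface peptidases, and 4 of 11 cathepsins. From Day00 to Day06, where 22.2% of all genes were called and 10.7% called higher, 0 of these 3 metalloproteases were called (Mmp2 is 1 of them), both serine proteases fell (Prss23 and Prss35), and 1 of 4 cathepsins, the lysosomal protease gene Ctsl, fell. Prss35, a relative of Prss23, had 111 counts on Day00 and 2 on Day06, a ratio of 69.0 after scaling with an exact 95% counting interval from 18.7 to 577. Of 8 tested inhibitors 4 fell, Timp2 and Timp3 with Cst3 and Serpinb6a, and 0 rose, and of 6 tested receptors, activators and enhancers 2 fell. The 17 tested matrix substrates moved both ways, with 10 lower and 4 higher and a median log2 fold change of -1.44 against 0.05 over all genes. In the second fit, of genes below the filter, 3 of 30 metalloproteases were called, and they are named here after their values were seen: Adam10 was higher on Day06 (123 against 49.8 CPM), and Adam12 (0 against 44.1 CPM) and Pappa (2.27 against 70.0 CPM) were lower.

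Among the substrates, Thbs1 (thrombospondin 1) fell from 3704 ± 288 to 641 ± 132 CPM (SD, n = 3, log2 fold change -2.57, adjusted p = 4.1e-27), Bgn (biglycan) from 974 ± 152 to 159 ± 35.8 CPM (-2.71, adjusted p = 2.36e-17), Fn1 (fibronectin) from 276 ± 98.4 to 39.3 ± 13.1 CPM (-2.89, adjusted p = 1.97e-06) and Col5a2 (a collagen V chain) from 358 ± 142 to 48.7 ± 38.4 CPM (-2.95, adjusted p = 1.21e-06). The proteoglycan genes Dcn (decorin) and Lum (lumican) went the other way. Dcn rose from 22.4 ± 21.3 to 221 ± 30.2 CPM (3.18, adjusted p = 4.41e-07), and Lum had 2 counts on Day00 and 38 on Day06, a ratio of 15.3 with an exact counting interval from 3.95 to 131. Col6a1 and Lama4, which encode chains of collagen VI and laminin, rose by 1.58 and 1.97 (adjusted p = 0.0324 and 0.0448).

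Most of the called genes of these lists were higher in siWdr5 than in nt, where 27.2% of all genes were called and 12.2% called higher. Of the 17 substrates 14 were higher and 0 lower, with a median of 1.83 against 0.00 over all genes; Thbs1 was at 1606 ± 208 against 261 ± 110 CPM (2.73, adjusted p = 4.49e-21), Col1a1, a chain of collagen I, at 1055 ± 110 against 172 ± 35.5 CPM (2.67, adjusted p = 3.5e-17), and Vcan (versican) at 764 ± 130 against 160 ± 24.4 CPM (2.22, adjusted p = 5.1e-12). Of 8 inhibitors 5 were higher, the 3 TIMP genes, Serpine2 and Serping1, with the complement inhibitor gene Serping1 at 242 ± 86.3 against 62.5 ± 61.3 CPM (2.10, adjusted p = 0.00032), and 1 was lower, Serpinb6a, at 259 ± 101 against 545 ± 205 CPM (-1.07, adjusted p = 0.000719). Mmp3 (stromelysin 1) stood against Mmp2: it was at 72.2 ± 31.4 in siWdr5 and 236 ± 18.6 CPM in nt (-1.80, adjusted p = 0.000979), while Adamts5, an aggrecanase gene, was at 94.6 ± 33.8 against 18.7 ± 5.1 CPM (2.10, adjusted p = 0.0171). Of 4 cathepsins 2 were higher and of 6 receptors, activators and enhancers 2 were. In siBard1, where 5.54% of all genes were called higher, 7 substrates were higher and 0 lower, and in siBrca1, where 2.49% were, 5 were higher and 1 lower. Of the 8 inhibitors that passed the filter, those called higher were TIMP genes and Serpine2 in both.

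Between nt and Day06, where 26.6% of all genes were called and 15.6% called higher, 1 of 17 substrates was higher and 7 were lower in nt, and the 3 TIMP genes fell together with Serping1 (62.5 ± 61.3 against 170 ± 79.1 CPM, -1.46, adjusted p = 0.0269), Pcolce, an enhancer of procollagen processing (-1.49, adjusted p = 0.0112), Col1a1 (-1.39, adjusted p = 0.000176), Thbs1 (-1.36, adjusted p = 2.93e-05) and Lama4 (-2.18, adjusted p = 0.0199). Mmp3 (1.49, adjusted p = 0.00494), Lum (1.53, adjusted p = 0.00102), Serpinb6a (0.85, adjusted p = 0.00701) and Ctsl (0.78, adjusted p = 0.0326) were higher in nt, while 2 of the other cathepsins, Ctsb and Ctsd, were lower (-1.07 and -0.96, adjusted p = 2.18e-05 and 0.000576). Of 8 tested inhibitors 5 were lower in nt, the 3 TIMP genes, Serpine2 and Serping1, and 1 was higher.

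Likeness across conditions was described by the Pearson correlation of condition means over the 42 conditions, with no test, since the conditions share replicates and sequencing pools. Timp3 and Prss23 had the highest r of the pairs of members over the 42 conditions (0.865) and over the 7 days (0.902), followed by Timp2 and Timp3 (0.728 and 0.766). Over the 35 transfected conditions the r of these 2 pairs was 0.755 and 0.756. Among all tested genes, Timp3 was the gene most like Prss23, followed by Thbs1 (r = 0.864) and the homeobox gene Prrx2 (r = 0.857). Nearest to Timp3 were Phldb2 (r = 0.903), Thbs1 (r = 0.901) and Actb (r = 0.882), which encodes beta-actin, and nearest to Timp2 were Vcan (r = 0.860), Ttc28 (r = 0.838) and Sparc (r = 0.833), which encodes a collagen-binding matrix protein. Timp1 had weaker neighbours in H13 (r = 0.720), Tpm4 (r = 0.693) and S100a6 (r = 0.687), and its r with Timp2 was 0.647 over the transfected conditions and -0.373 over the 7 days. The sparse Mmp2 reached 0.653 with Igsf10, 0.637 with Col6a2 and 0.616 with Pdxdc1.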

How the data were processed

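RNA was measured by CEL-Seq2, which tags the 3′ end of each transcript with a UMI, in 3 sequenced pools that stand for replicates 1 to 3. The authors mapped reads to mm10 with Bowtie2, assigned them to GENCODE genes and deposited UMI-corrected counts per gene and library, without normalization. They also deposited log2 values that were normalized and batch-regressed. Build names are from the submitters' processing notes. The condition of a library was read from its column name, and 0 columns could not be matched to a sample. Replicate 3 has 1 Mock library in the log2 table and 2 in the count table, and it was identified by the correlation of the values (r = 0.860 against 0.0898). The antisense partners of Timp3 and Prss23 were read from the annotation, and the strand used in counting is not given in the sources used here.

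Counts were tested with edgeR 4.0.16 (glmQLFit, glmQLFTest) in R 4.3.3, with TMM scaling (factors 0.825 to 1.39), filterByExpr by condition, 1 term per condition and the replicate as a block, in 1 fit of 127 libraries with 83 residual degrees of freedom. Standard errors are the fold change over the root of F, and intervals are normal. CPM are per TMM-scaled total of the 3013 tested genes. Totals of 29656 to 235292 counts set the precision, and the exact intervals of count ratios and the limits for a count of 0 cover counting error only. A second fit, of 3125 genes, held the listed genes with too few counts for the first. In simulated data of Day06 against Day00 over 3013 genes, 36 of 103 genes changed by 1 on the log2 scale and 74 of 97 changed by 2 were recovered, with 5 false calls. Alternatives were RLE size factors, a filter of 10 counts in all, DESeq2 1.42.0, limma 3.58.1 on the deposited log2 values, no block, every library, other controls, fits of only 2 conditions, and leaving out each replicate.

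The replicate number marks the sequenced pool in the labels. The study corrected batch effects by regression and does not say which batch was meant. Deviations from condition means correlated with a median r of 0.0981 between libraries of the same number and -0.0685 between those of different numbers.

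The members and gene lists were chosen with earlier results of these data known. Named genes are the members, the 5 listed genes a direction with the largest called change, at least 50 CPM in 1 condition and 1 sign in all replicates, and the 3 tested genes most correlated with each member. Outside this rule, and after their values were seen, Adam10, Adam12, Pappa, Cst3, Serpine2, Ctsb and Ctsd were named, and Ctsl and Serpinb6a for Day06 against Day00. Promoters are from RefSeq (GRCm38.p6); 5 of 6 members matched, and Mmp2 is named only.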

Additional observations from a re-analysis of the deposited data

Results flagged for a closer look

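A pair of differences between siRNA conditions was larger than the spread between libraries in a direct test, in the fit of all libraries, but neither was called under several other settings. Timp1 was higher in siWdr5 than in siBrca1 by 1.00 on the log2 scale, at 251, 384 and 427 CPM against 103, 160 and 236, and higher in 3 of 3 libraries than any siBrca1 library. Timp3 was higher by 1.08, at 304, 370 and 456 CPM against 165, 182 and 188, again without overlap. With edgeR's quasi-likelihood test the adjusted p was 0.0374 and 0.0192. Neither was called with limma on the deposited log2 values (0.72 and 0.13, adjusted p = 0.745 and 0.978), without the block (adjusted p = 0.0998 and 0.0827), with a filter of 10 counts in all (adjusted p = 0.101 and 0.0521) or without replicate 2 (adjusted p = 0.256 and 0.124) or replicate 3 (adjusted p = 0.100 and 0.209), and Timp1 was not called without replicate 1 (adjusted p = 0.113). No Mock library stood apart from the other 4 for any of the 6 genes by Dixon's test.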

How the results depend on the processing

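The 17 calls of a later day against Day00 became 11 with a filter of 10 counts in all, 8 with limma on the deposited log2 values and 10 without the replicate block. The 7 calls between consecutive days became 2, 0 and 1 in the same order, and 2 to 3 when a replicate was left out; the 2 without replicate 3 include Mmp2 on Day01, which was not among the 7. For nt against Day06, 3 calls became 0 with limma and 1 to 2 without a replicate. Over the 33 siRNAs, 16 calls became 6 with limma and 10 to 13 without a replicate; the 10 without replicate 3 include Timp2 in sip53, which was not among the 16. Within these, siWdr5 went from 5 to 3 with limma, siBard1 from 4 to 1 with limma and 1 to 4 without a replicate, siBrca1 from 3 to 1 with limma and 1 to 2 without a replicate, siCdk1 from 2 to 1 with limma and siEp300 from 2 to 0 with limma. The 2 calls between siRNAs became 0 with limma, with the filter of 10 counts and without the block, and 0 to 1 without a replicate. The cause was not tested.

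Of 24 called values (Day06 against Day00, nt against Day06, the siRNAs against nt, and siWdr5 against siBrca1), 24 stayed called with RLE size factors, DESeq2 and every library, 18 with the filter of 10 counts, 18 without the replicate block and 8 with limma, and 0 turned their direction. Among the calls of other days, Timp1 on Day03 against Day00 (DESeq2), Timp1 from Day03 to Day04 (DESeq2 and RLE) and Timp2 from Day04 to Day05 (DESeq2) were lost. Uncalled values that turned were Timp1 on Day06 against Day00 (-0.031 with RLE, -0.025 with DESeq2, -0.15 to 0.31 without a replicate), Mmp2 there (0.0073 with the filter of 10 counts, 0.46 and 0.79 without replicates 1 and 2, -1.90 without replicate 3), Prss23 in nt against Day06 (-0.86 to 0.49 without a replicate), Timp1 in siBrca1 (-0.024 to 0.74 without a replicate), Prss23 in siCdk1 (-0.51 to 1.36 without a replicate) and Mmp2 in siEp300 (-0.51 against the mean of the transfected conditions, -0.48 against nt and Mock, -0.49 to 0.83 without a replicate). RLE size factors moved the median of all genes to 0.18 in siWdr5 against nt, -0.15 in nt against Day06 and -0.11 in Day06 against Day00, and the higher calls from 367 of 821 to 490 of 805, from 470 of 802 to 345 of 781 and from 321 of 668 to 229 of 660.

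The difference in the inhibitor to protease ratio over the days was -0.78 without Prss23, -0.52 for Timp2 against Mmp2 and Mmp14, 0.66 with 1 added and 0.38 to 0.87 without a replicate. With a replicate block, and libraries of different days still treated as alike, its exact permutation p was 0.0385. In siWdr5 the ratio differed by 0.68 without Prss23, 0.72 for Timp2 against Mmp2 and Mmp14, 0.024 with 1 added and -0.21 to 0.28 without a replicate (exact permutation p = 0.979 with a replicate block). Mmp2, Mmp14 and Prss23, at a median of 4 counts a library, are limited by depth.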
